A study of Oryctolagus cuniculus with 24 samples.

Results

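Lamina propria mononuclear cells (LPMC) of the rabbit caecum were compared between animals that received Trichuris suis ova (TSO) and animals that received the vehicle, all without colitis. The comparison rests on 6 of the 24 RNAseq libraries of the series, taken as those labelled LPMC with no colitis, 3 from TSO Water rabbits and 3 from Veh Water rabbits. All were New Zealand white rabbits that drank fennel tea in place of water. TSO Water rabbits were given 3 oral doses of 2500 embryonated ova, Veh Water rabbits the buffer alone, and tissue was collected on day 35. Intestinal epithelial cells (IEC) of the same 6 animals were sequenced too. The remaining LPMC libraries are from Veh DSS and TSO DSS rabbits, which in addition drank dextran sulphate sodium at 0.1% to induce colitis. The LPMC preparation was obtained by collagenase digestion of lamina propria that still carried its muscle layer, followed by density centrifugation, so that it is a mixture of cell types. In such bulk RNA, fewer cells of a type and less RNA per cell cannot be told apart. Each group had 1 rabbit in room B and 2 in room A, according to the sample sheet of the study.

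The pig whipworm T. suis lodges its anterior end in the epithelium of the caecum and colon, and the larvae hatch from swallowed ova in the gut. Whipworms meet the epithelium first, while the lamina propria beneath it holds the T cells, B cells, plasma cells, macrophages, dendritic cells and granulocytes that answer to them. Responses to helminths in the gut are typically of type 2, with interleukins made by T helper and innate lymphoid cells, eosinophils, mast cells and alternatively activated macrophages. The question of the comparison is what the ova alone do to LPMC in a healthy mucosa.

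The 6 libraries held between 10697865 and 14499021 reads, and mitochondrial genes took 13.5% to 24.98% of them. Genes are given by Ensembl identifier and chromosome, as the deposited tables name them, on the rabbit build OryCun2.0 that the submitters' processing notes list. The name table at hand matched 0 of the 17318 identifiers, so the roles of the genes, the planned immune gene lists and the marker lists for the labelled cell type were not analysed here. As a check of the label without names, each of the 6 libraries correlated better with the other LPMC libraries (mean r from 0.906 to 0.924 across genes) than with the IEC libraries (0.809 to 0.852). Of the 6, Veh Water 1 stood apart from its group. It correlated at 0.955 with TSO Water 3 but at 0.933 and 0.928 with Veh Water 2 and Veh Water 3, which correlated at 0.952 with each other. The first principal component, with 39.0% of the variance, placed Veh Water 1 (-21.3) among the TSO Water libraries (-8.25, -12.2 and -48.0) and away from Veh Water 2 and 3 (39.2 and 50.5). On the second component, with 18.9% of the variance, it lay at -29.2, far from TSO Water 1 and 2 (32.8 and 29.97) and nearer to TSO Water 3 (-17.5) and Veh Water 3 (-17.1). Veh Water 1 is also the Veh Water rabbit of room B, so that room and animal cannot be told apart here. Values without it are given beside the calls, the sets and the shares of reads.

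In LPMC of healthy rabbits 3 genes changed with TSO, all towards higher levels, ENSOCUG00000004736 on chromosome 13, ENSOCUG00000002925 on chromosome 17 and ENSOCUG00000026988 on chromosome 16. No gene was called lower. Calls were made with limma on log2 of the deposited normalised value plus 1, over 10363 genes with a value above 10 in at least 2 libraries of a group. A called gene had to differ by more than 1 on the log2 scale, with p under 0.05 after Benjamini-Hochberg adjustment. The called genes are 0.0289% of the genes tested, all of them higher. Over all genes the median log2 fold change was -0.03. At this adjusted threshold the count depends on single libraries, since it ranged from 0 to 5 when each library was left out. It was 5 without Veh Water 1, 0 without TSO Water 3 or Veh Water 3, 1 without TSO Water 1, and 2 without TSO Water 2 or Veh Water 2. It was 0 with the edgeR quasi-likelihood test on recovered reads, where 741 genes had p under 0.05 before adjustment, and 0 with the room as a covariate, where limma had 730 such genes. It was also 0 in limma with all 12 LPMC libraries in the fit. With no filter on low values limma called 1 gene, ENSOCUG00000004736. The edgeR likelihood ratio test called 138 genes higher and 14 lower, and DESeq2 135 higher and 10 lower. Of the 5 genes called without Veh Water 1, 1 was lower.

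ENSOCUG00000004736 was nearly silent in control LPMC. It had 4, 3 and 2 reads in Veh Water 1, 2 and 3, and 2434, 366 and 926 reads in TSO Water 1, 2 and 3. The groups were thus far apart, although the TSO Water rabbits differed widely among themselves. The mean value was 1121 ± 856 (SD, n = 3) in TSO Water against 3.02 ± 0.53 in Veh Water. Its log2 fold change of 7.82 (SE 0.56, 95% interval 6.50 to 9.15, limma adjusted p = 0.0208) was the highest of all genes tested. With only 9 control reads in all, the ratio of depth-scaled reads was 399, with an interval of 210 to 873 that covers counting error only. This gene entered the test through TSO Water alone, since its control values lay under the filter. Without Veh Water 1 the log2 fold change was 7.89 (limma adjusted p = 0.0266). The gene was no longer called without TSO Water 3, Veh Water 2 or Veh Water 3 (limma adjusted p = 0.240, 0.0549 and 0.120), or with the room as a covariate (0.0619). Within room A the log2 difference was 8.47 (2 rabbits against 2, limma adjusted p = 0.0365), and within room B it was 6.53 (1 against 1).

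ENSOCUG00000002925 was expressed in control LPMC and higher with TSO. Its reads were 92, 69 and 51 in Veh Water 1, 2 and 3, and 1475, 455 and 956 in TSO Water 1, 2 and 3. Every TSO Water library was above every control, and TSO Water 2, the rabbit of room B, was the lowest of the treated group, as it was for ENSOCUG00000004736. The log2 fold change was 3.53 (SE 0.34, interval 2.74 to 4.32, limma adjusted p = 0.0478), and the values averaged 891 ± 378 against 71.5 ± 8.75 (SD, n = 3). Without Veh Water 1 the log2 fold change was 3.59 and the gene was not called (limma adjusted p = 0.0570). Of the 6 libraries left out in turn, the call held only with TSO Water 2 left out, and the limma adjusted p ranged from 0.0211 to 0.253. It was 0.106 with the room as a covariate. The log2 difference was 3.96 within room A (limma adjusted p = 0.0399) and 2.68 within room B.

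ENSOCUG00000026988 had the most even levels among the treated rabbits. Its reads were 37, 50 and 27 in Veh Water 1, 2 and 3, and 445, 298 and 308 in TSO Water 1, 2 and 3. Scaled to a library of 1000000 reads (RPM), the treated libraries lay between 24.4 and 30.7 RPM and the controls between 2.42 and 4.45, so that the groups did not overlap. The log2 fold change was 3.09 (SE 0.27, interval 2.45 to 3.73, limma adjusted p = 0.0417). It was 2.94 without Veh Water 1 (limma adjusted p = 0.0445), 2.95 within room A and 3.35 within room B. The call was lost within room A (limma adjusted p = 0.130), without TSO Water 1, 2 or 3 or Veh Water 3 (0.168, 0.184, 0.240 and 0.120) and with the room as a covariate (0.106).

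On the side of lower levels, the smallest limma p-values belonged to ENSOCUG00000007249 on chromosome 2 and ENSOCUG00000009070 on chromosome 7, and limma called neither. ENSOCUG00000007249 had 197, 140 and 93 reads in Veh Water 1, 2 and 3 and 84, 48 and 47 in TSO Water 1, 2 and 3. The highest treated library, at 5.79 RPM, stayed under the lowest control, at 8.33, and the log2 fold change was -1.34 (SE 0.27, limma adjusted p = 0.212). ENSOCUG00000009070 had 1807, 1384 and 1421 reads in the controls and 1200, 482 and 534 in TSO Water. Its controls were close together, at 123 to 129 RPM, and the treated libraries lay at 42.3 to 82.8. The log2 fold change was -1.28 (SE 0.27, limma adjusted p = 0.253). The log2 differences of the 2 genes were -1.19 and -1.16 in room A and -1.63 and -1.52 in room B. Both were chosen among genes without overlap between groups, so that the sign within each room was fixed by the choice. Without Veh Water 1 the log2 fold changes were -1.23 for ENSOCUG00000007249 (limma adjusted p = 0.167) and -1.31 for ENSOCUG00000009070 (limma adjusted p = 0.153). In this order, both genes passed the same limits with DESeq2 (DESeq2 adjusted p = 0.00293 and 0.0103). They also did with the edgeR likelihood ratio test (adjusted p = 0.00498 and 0.0148). Neither did with the edgeR quasi-likelihood test (adjusted p = 0.209 and 0.278).

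**Figure D1:**
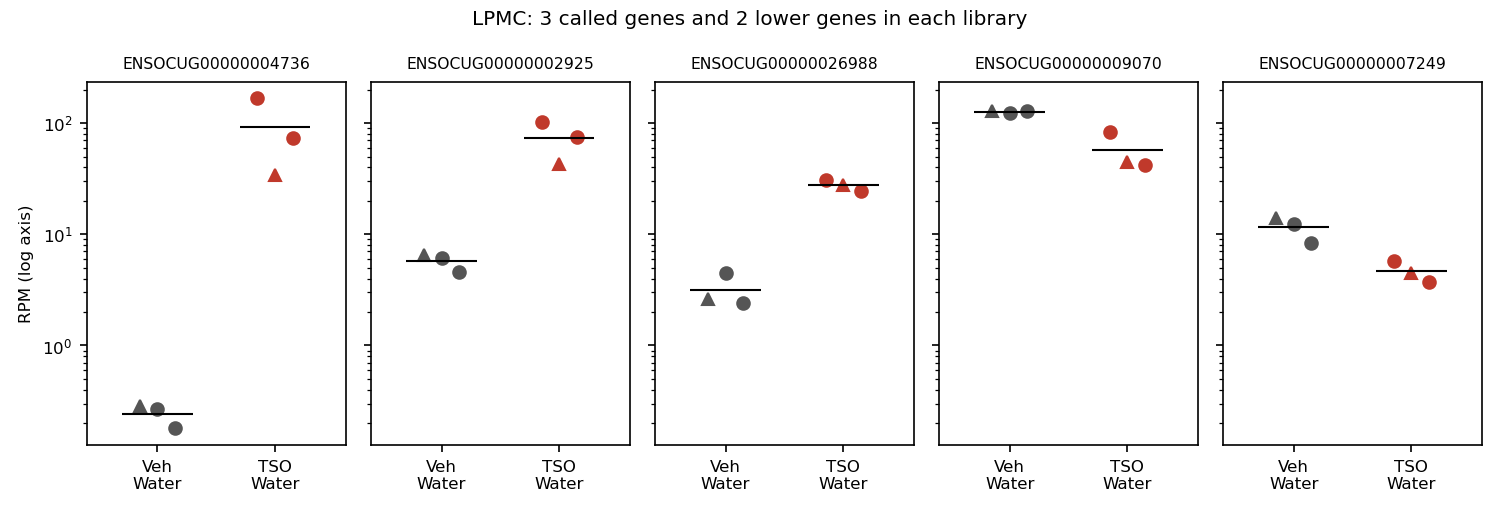
RPM (log axis) of the 3 called genes and the 2 named lower genes in the LPMC libraries. Points are single rabbits (grey, Veh Water; red, TSO Water; circles, room A; triangles, room B) and lines are group means; ENSOCUG00000004736 lies between 0.179 and 0.285 in the controls and between 34.2 and 168 with TSO.

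The size of these differences can be set beside that of the next genes in order. Among genes that differed by more than 1 on the log2 scale and did not overlap between groups, the 10 higher ones with the lowest p-values had log2 fold changes from 1.40 to 7.82 and limma adjusted p-values from 0.0208 to 0.0931. The 10 lower ones chosen in the same way had log2 fold changes from -2.98 to -1.18 and limma adjusted p-values from 0.212 to 0.490. In 750 genes all TSO Water values lay above all Veh Water values (7.24% of the genes tested), and in 424 genes all lay below (4.09%). These counts were 1407 (13.6%) and 1852 (17.9%) without Veh Water 1, with 3 rabbits against 2. Fewer controls separate more easily, so that these counts cannot be set directly against those with all libraries. With 3 rabbits against 3, and with a single gene taken alone, an exact permutation test cannot give a p below 0.1. That 0.1 is also the probability of no overlap, in either direction, when the groups do not differ. Among the genes tested, 11.3% did not overlap.

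For a wider view, all genes beyond 1 on the log2 scale whose limma p was under 0.05 before adjustment were described together. They were 240 genes with higher levels in TSO Water (2.32% of those tested) and 75 with lower levels (0.724%), and this pair of limits is called the unadjusted threshold from here on. These sets were chosen by the comparison itself, so that their values in the 6 libraries are a description, and of them only the 3 called genes pass the adjusted threshold. The median log2 fold change of the higher set was 1.59, with 76 genes beyond 2 and 22 beyond 3. In the lower set it was -1.45, with 13 genes beyond -2 and 5 beyond -3. Of the higher set 210 genes did not overlap between groups (87.5%), and of the lower set 45 (60.0%), beside 11.3% of all genes tested. The same libraries set the limits on p and on fold, so that this separation is largely built into the sets. The filter on low values was passed through TSO Water alone by 49 of the higher genes and through Veh Water alone by 27 of the lower ones. Control LPMC was listed with at most 3 reads per library for 7 of the higher genes, and TSO Water LPMC for 3 of the lower ones. With these genes put at the bound that 3 reads per library allow, the medians were 1.59 and -1.45 as before. The bounds (2.39 to 4.15 and -4.30 to -1.73) lie beyond these medians, so that this step could not move them.

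The lower set was concentrated among genes with low values, and the higher set was found at all levels. Among the 1098 genes with a mean value under 30, 30 were lower (2.73%) and 41 were higher (3.73%). The share of lower genes was 0.954% between 30 and 100, 0.226% to 0.553% in the bins from 100 to 3000, and 0.197% (1 of 508 genes) over 3000. The share of higher genes was 1.58% to 2.92% in the bins from 30 to 3000 and 4.72% (24 genes) over 3000. With Veh Water 1 left out the lower genes were spread more evenly, with 5.74% of the genes under 30, 3.03% to 5.13% in the bins between and 4.72% over 3000. The share of higher genes was then 4.19% under 30, 2.61% to 4.41% in the bins between and 8.46% (43 genes) over 3000. With all 6 libraries, the 240 higher genes lay on all the chromosomes with tested genes apart from the mitochondrial one. Their share was highest on chromosomes 12 (28 of 716 genes, 3.91%) and 13 (36 of 1038, 3.47%), beside 2.32% of all genes. The share of lower genes was highest on chromosomes 15 (11 of 352, 3.13%) and 10 (6 of 207, 2.90%), beside 0.724% of all. Chromosomes 19, X, 6 and 20 had 14, 11, 4 and 2 higher genes and no lower one. With Veh Water 1 left out chromosome 15 had 31 lower genes (8.81%), beside 4.26% of all genes tested. Chromosomes 19 and X then had 15 (2.31%) and 7 (1.74%). The mitochondrial genes (6 of 20, 30%) and chromosome 8 (7.22%) then stood above chromosome 10 (6.76%). The share of higher genes was then 5.31% on chromosome 12, 4.73% on X, 4.58% on 1 and 4.53% on 13, beside 3.65% of all.

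**Figure D2:**
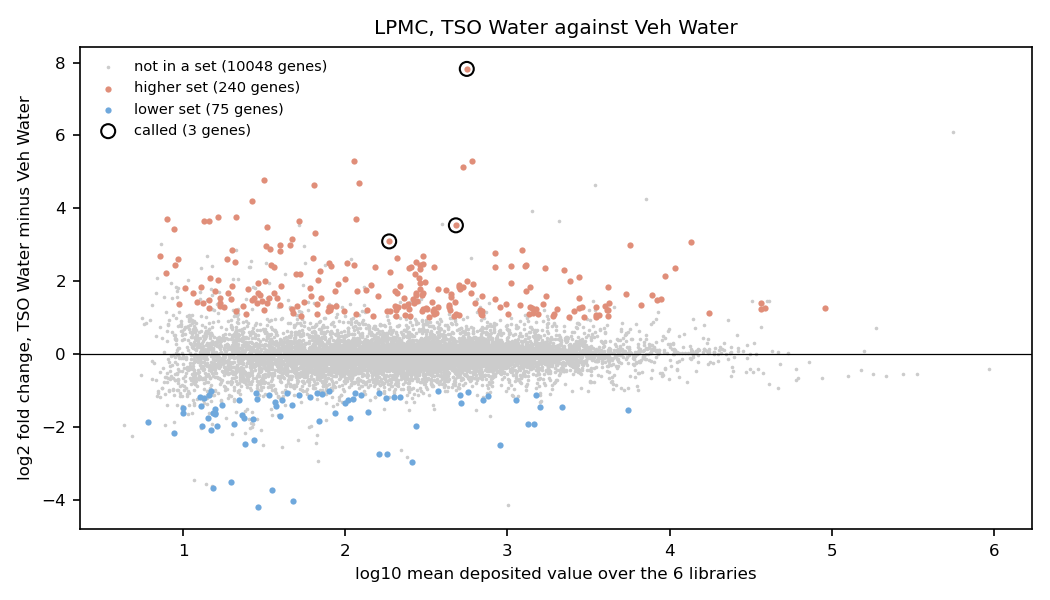
Log2 fold change of TSO Water minus Veh Water in LPMC (vertical axis) against the log10 of the mean deposited value over the 6 libraries (horizontal axis), with each point a gene. The 240 higher and 75 lower genes past the unadjusted threshold are coloured, and the 3 called genes, at 7.82, 3.53 and 3.09, are circled; grey points beyond 1 have p of 0.05 or more before adjustment.

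Control animals were not alike for these sets, and Veh Water 1 mattered most for the lower one. It was the highest of the controls for 139 of the 240 higher genes (57.9%, against 34.9% of all genes tested) and the lowest for 50 of the 75 lower genes (66.7%, against 38.9%). Without it, the same thresholds gave 378 higher and 441 lower genes in place of 240 and 75. These shared 226 genes with the higher set (94.2% of that set and 59.8% of the 378) and 55 genes with the lower set (73.3% of that set and 12.5% of the 441). Over the 441 genes the median level was 26.0 and 25.8 RPM in Veh Water 2 and 3, 13.2, 12.0 and 6.73 in TSO Water 1, 2 and 3, and 8.19 in Veh Water 1. The TSO Water, Veh Water 2 and Veh Water 3 libraries chose these genes, so that only the level in Veh Water 1 is free of the choice. In IEC of the same Veh Water 1 rabbit the median of the 441 genes was 22.9, above 16.8 and 16.7 in the IEC of the other controls.

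The 3 called genes were next followed in the IEC of the same rabbits. Among 10186 genes tested there, limma called 0, while 120 were higher (1.18%) and 31 lower (0.304%) at the unadjusted threshold. ENSOCUG00000004736 had 9 and 8 reads in IEC of Veh Water 1 and 2 and was listed at 0 in Veh Water 3, with 2131, 1133 and 3223 reads in IEC of TSO Water 1, 2 and 3. The groups did not overlap, with a log2 fold change of 9.46 (interval 7.45 to 11.5, limma adjusted p = 0.167). ENSOCUG00000002925 lay at 6.55, 10.1 and 10.0 RPM in control IEC and at 58.1, 13.3 and 30.7 with TSO (log2 fold change 1.94, limma adjusted p = 0.997). ENSOCUG00000026988 overlapped between groups in IEC, with 4.44, 38.9 and 8.82 RPM in the controls and 92.2, 32.1 and 25.4 with TSO (log2 fold change 2.09, limma adjusted p = 0.997). For the lower genes the log2 fold change in IEC was -0.42 for ENSOCUG00000007249 and -0.47 for ENSOCUG00000009070.

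Whether the change differed between the cell types was tested as an interaction on 12 libraries. Each rabbit gave 1 LPMC and 1 IEC library, and the fit had no term for the rabbit, so that the intervals ignore this pairing. It called 0 of 10817 genes in limma, while 231 (2.14%) had p under 0.05 before adjustment. The log2 change of ENSOCUG00000002925 was larger in LPMC than in IEC by 1.62 (interval 0.34 to 2.89, limma adjusted p = 1.00). For ENSOCUG00000004736 it was lower in LPMC by 1.44 with an interval that holds 0 (-3.79 to 0.90), and for ENSOCUG00000026988 it was higher by 1.02 (-0.99 to 3.04). No difference between the cell types could thus be shown for these genes, and the intervals span several-fold differences.

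A separate view of TSO in LPMC came from the rabbits with DSS, which share no library with the comparison. Among 10157 genes tested, limma called 0 between TSO DSS and Veh DSS, with 84 higher (0.827%) and 518 lower (5.1%) at the unadjusted threshold. ENSOCUG00000004736 had 5, 46 and 18 reads in Veh DSS 1, 2 and 3, and 1438, 841 and 15 in TSO DSS 1, 2 and 3. TSO DSS 3, the smallest library, held only 4.07 RPM against 0.54 to 2.92 in Veh DSS. The log2 difference was 4.70 (interval 1.26 to 8.13, limma adjusted p = 0.465), and with each library left out it ranged from 3.53 without TSO DSS 1 to 6.23 without TSO DSS 3. ENSOCUG00000002925 was at 9.81, 11.6 and 26.5 RPM in Veh DSS and at 101, 39.2 and 92.8 in TSO DSS, again without overlap (log2 difference 2.31, interval 1.05 to 3.57, limma adjusted p = 0.394). It was called without TSO DSS 2 (limma adjusted p = 0.0273) and not without any of the other 5 libraries (0.358 to 0.864).

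ENSOCUG00000026988 was not higher with TSO in these rabbits. It reached 12.2, 97.5 and 100.2 RPM in Veh DSS, where no ova had been given, and 24.6, 41.9 and 30.9 in TSO DSS. Levels in TSO DSS thus lay within the range of Veh DSS, with a log2 difference of -0.63 (interval -2.70 to 1.45, limma adjusted p = 0.768). Single libraries moved this value, which was -1.66 without Veh DSS 1, -0.09 without Veh DSS 2 and -0.13 without Veh DSS 3. In the 8 groups of the series its means ran from 129 ± 142 in IEC of Veh DSS down to 3.17 ± 1.12 in LPMC of Veh Water (SD, n = 3). LPMC of Veh Water was the group with the lowest mean for ENSOCUG00000002925 too, at 5.76 ± 1.05. Low levels in that group were part of why both genes were called, so that nothing is read from its place. For ENSOCUG00000004736 the 4 groups with TSO had means of 79.5 to 631 RPM and the 4 groups without it 0.23 to 1.57. The SD within the groups with TSO ran from 68.7 to 549, so that their order is uncertain. The lowest TSO library of the series (4.07) was above the highest library without TSO (2.92). The former value rests on 15 reads in LPMC of TSO DSS 3 and the latter on 46 in LPMC of Veh DSS 2. The LPMC libraries of TSO Water and Veh Water chose this gene.

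The lower genes were at low levels in TSO DSS as well. ENSOCUG00000009070 had 188.9, 11.8 and 57.9 RPM in Veh DSS and 4.23, 11.9 and 4.61 in TSO DSS (log2 difference -3.01, interval -5.38 to -0.65, limma adjusted p = 0.469). The groups overlapped through Veh DSS 2 and TSO DSS 2, and the difference was -2.10 without Veh DSS 1 and -4.01 without Veh DSS 2. ENSOCUG00000007249 had 9.81, 0.70 and 4.29 RPM in Veh DSS and 0.48, 2.02 and 0 in TSO DSS (log2 difference -2.75, interval -6.13 to 0.63, limma adjusted p = 0.552). The 0 in TSO DSS 3, a library of 3685504 reads, is as listed in the table, and without that library the difference was -1.56. It was -3.80 without TSO DSS 2.

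**Figure D3:**
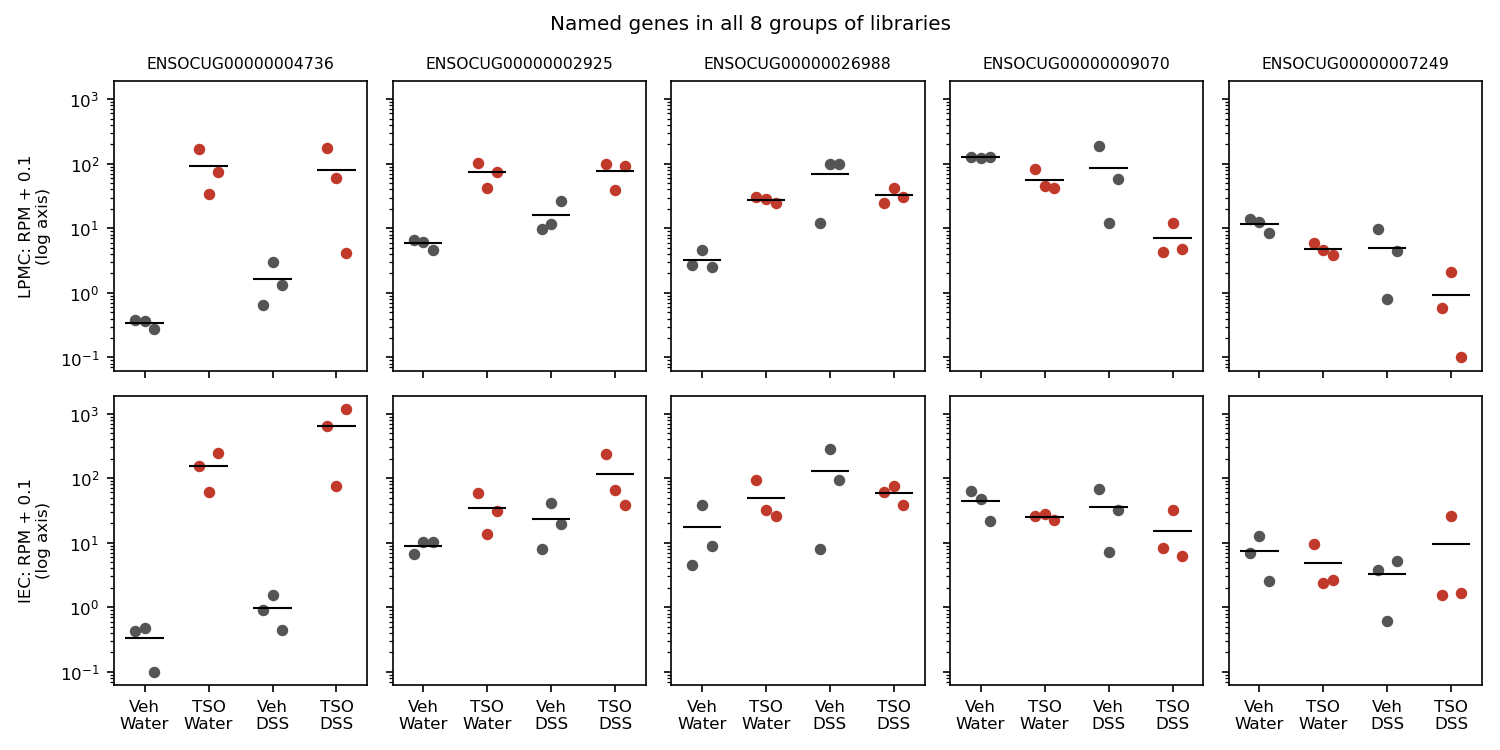
RPM plus 0.1 (log axis) of the same genes in all 24 libraries, with LPMC in the upper row and IEC in the lower row; points are rabbits (red with TSO, grey without) and lines are means of 3. ENSOCUG00000004736 lies at 4.07 or more in all TSO libraries and at 2.92 or less in all others. The value of 4.07 rests on 15 reads and that of 2.92 on 46. ENSOCUG00000026988 reaches 100.2 in LPMC of Veh DSS.

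The 240 higher genes were read in the same libraries, which had not chosen them. In IEC 199 of them were tested, and the median log2 fold change of TSO Water was 0.89, against -0.01 over all 9792 genes tested in both cell types. The value was above 0 for 178 of the 199 (89.4%, against 48.2% of all), and 65 (32.7%) passed the unadjusted threshold, against 1.17% of all. The cells came from the same rabbits, so that this shows the same animals again in another cell fraction. In the DSS rabbits 230 were tested, with a median log2 difference of 0.36 between TSO DSS and Veh DSS against 0.01 over all 10004 genes. There 163 (70.9%) were above 0, against 50.5% of all, and 43 (18.7%) passed the unadjusted threshold, against 0.790%. That threshold was passed in both readouts by 14 of the 196 genes tested in both (7.14%), and by 14 of all 9649 genes (0.145%).

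The levels of the set were also read in every library. Over the 240 genes the median was 9.08, 8.91 and 4.84 RPM in LPMC of Veh Water 1, 2 and 3, and 27.9, 24.0 and 29.8 in TSO Water 1, 2 and 3. In the DSS rabbits it was 10.5, 12.0 and 18.6 without ova and 24.5, 17.0 and 23.6 with them. The set was picked by its difference between Veh Water and TSO Water, so that a group that did not choose them tends to lie between, and nothing is read from the place of Veh DSS. Within the DSS rabbits the highest Veh DSS library overlapped with the lowest of TSO DSS. In IEC the levels were lower in the rabbits without DSS, at 2.64, 6.90 and 2.85 in Veh Water and 13.1, 5.24 and 5.74 in TSO Water, and they overlapped. In IEC of the DSS rabbits they were 4.28, 28.7 and 15.5 in Veh DSS and 26.6, 22.0 and 14.2 in TSO DSS, so that the highest IEC library, Veh DSS 2, was from a rabbit without ova. The 378 genes found without Veh Water 1 had lower medians. In IEC the median was 0.59, with 86.2% above 0 and 24.5% past the unadjusted threshold. In the DSS rabbits it was 0.23, with 65.8% above 0 and 12.7% past that threshold.

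The 75 lower genes lay mostly below 0 in the DSS rabbits and in IEC. In the DSS rabbits 62 were tested, and their median log2 difference was -1.67, with 56 below 0 (90.3%, against 49.5% of all genes) and 12 (19.4%, against 5.12%) past the unadjusted threshold. The median level over the 75 genes was 1.57, 4.63 and 0.54 RPM in TSO DSS 1, 2 and 3 and 5.82, 3.805 and 4.85 in Veh DSS, so that TSO DSS 1 and 3 were low and TSO DSS 2 lay within the range of Veh DSS. In IEC of the TSO Water rabbits 67 were tested, with a median of -0.42 and 59 below 0 (88.1%, against 51.8% of all), of which 6 (8.96%, against 0.194%) were past it. The 441 genes found without Veh Water 1 lay mostly below 0 in the DSS rabbits and evenly around 0 in IEC. In the DSS rabbits 401 of 420 were below 0 (95.5%) with a median of -1.51, and 27 (6.43%, against 5.12% of all) passed the unadjusted threshold. In IEC 215 of 422 were below 0 (50.9%) with a median of -0.0049, and 6 (1.42%, against 0.194%) passed it. The DSS rabbits were uneven for these genes, since the median over the 441 was 5.07 and 1.90 RPM in TSO DSS 1 and 3 but 23.0 in TSO DSS 2, against 21.3, 16.0 and 14.9 in Veh DSS. Low libraries for this block of genes were thus found among treated and control rabbits, and a high one among the TSO DSS rabbits.

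**Figure D4:**
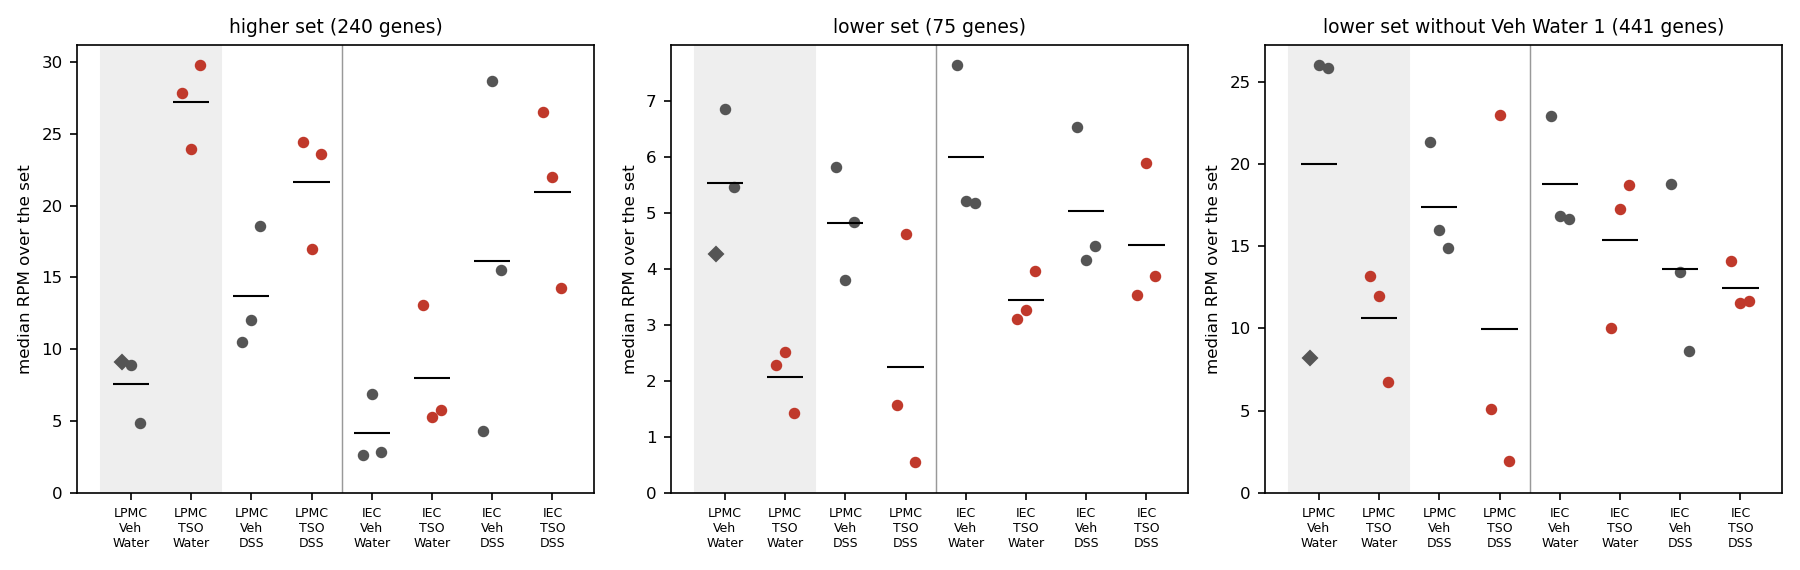
Median RPM over the 240 higher genes, the 75 lower genes and the 441 lower genes found without Veh Water 1, in each library of the 8 groups (points; lines are means of 3; the diamond is LPMC Veh Water 1; the shaded groups chose the sets). For the 441 genes the diamond, at 8.19, lies among the TSO Water libraries (6.73 to 13.2) and far under the other controls (26.0 and 25.8).

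**Figure D5:**
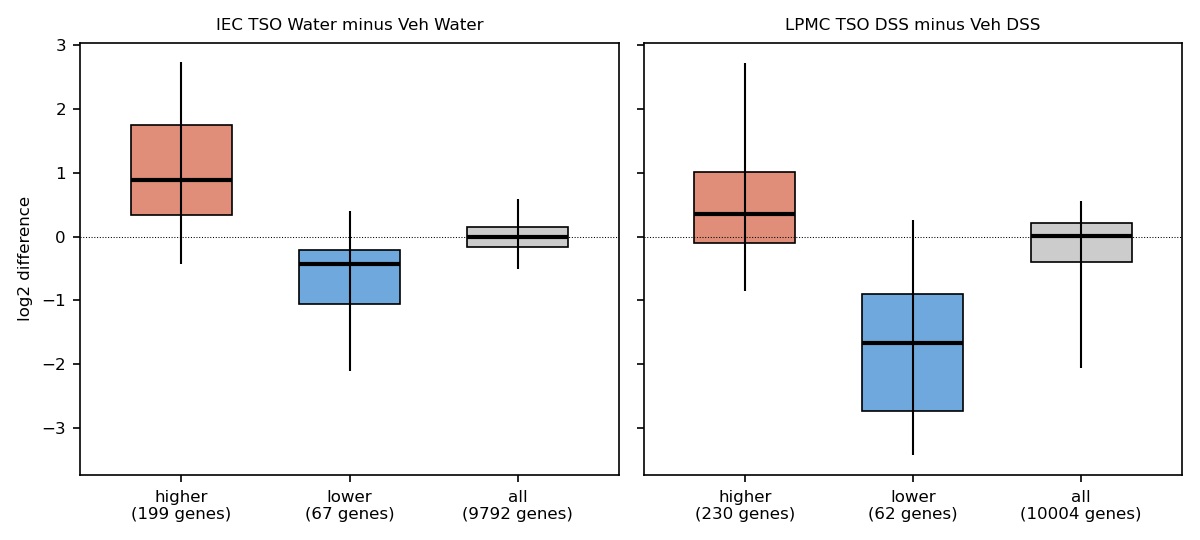
Log2 differences of the higher and lower sets and of all genes in IEC of the same rabbits (left) and in LPMC of TSO DSS against Veh DSS rabbits (right). Boxes span the middle 50% of the genes with the median as a line, and whiskers run from the 5th to the 95th percentile; the higher set has medians of 0.89 and 0.36, the lower set of -0.42 and -1.67, and all genes of -0.01 and 0.01.

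Epithelial RNA in the LPMC preparation was measured with genes chosen in the DSS rabbits alone. The 21 genes at least 32-fold higher in IEC than in LPMC, with at least 100 RPM in IEC, were listed at 0 in all 12 LPMC libraries, which follows in part from how they were chosen. A listed 0 need not be an absence of reads in these tables, as ENSOCUG00000029096, described with the mitochondrial genes, shows. With an 8-fold limit the list had 29 genes, which took 0.0184% ± 0.0014 of the reads in TSO Water and 0.0357% ± 0.0188 in Veh Water (SD, n = 3, exact two-sided permutation p = 0.4). A list of 56 genes at least 4-fold higher in IEC, with at least 20 RPM there and reads in every LPMC library with DSS, was added after the data were seen and took 0.150%, 0.148% and 0.137% in TSO Water and 0.0766%, 0.220% and 0.206% in Veh Water 1, 2 and 3 (exact p = 0.8). Veh Water 1 was thus the lowest and the other controls the highest. The control means were 0.213% with the 56 genes and 0.0465% with the 29 genes when it was left out. Of these 56 genes 43 were below 0 in the comparison, and their median change was -0.54 on the log2 scale; 7 were among the 75 lower genes (12.5% of the 56, against 0.724% of all genes tested) and 4 among the 240 higher ones (7.14%, against 2.32%). The 99 genes at least 4-fold higher in LPMC, chosen by the same limits with the cell types exchanged, took 7.75%, 11.8% and 16.1% of the reads in TSO Water and 16.9%, 8.60% and 13.2% in Veh Water (exact p = 0.7; the control mean without Veh Water 1 was 10.9%, under the 11.9% of TSO Water), and 6 of them were in the higher set (6.06%, against 2.32%) and 1 in the lower set (1.01%, against 0.724%). Of these 99 genes 63 were below 0 in the comparison, with a median change of -0.08. The levels of both sets were also compared between the cell types. Of the 75, 19 were over 2-fold higher in IEC than in LPMC of the DSS rabbits (25.3%, against 4.41% of all genes tested), and of the 441, 70 were (15.9%). In the higher set 29 of 240 were over 2-fold higher in IEC (12.1%) and 46 over 2-fold higher in LPMC (19.2%, against 9.84% of all), while of the 75 lower genes 5 were over 2-fold higher in LPMC (6.67%). The part of epithelial RNA in either set was not tested.

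The mitochondrial share of the reads was 17.8%, 13.7% and 15.1% in TSO Water 1, 2 and 3, and 13.5%, 23.5% and 24.98% in Veh Water 1, 2 and 3 (exact two-sided permutation p = 0.4). Veh Water 1 was the lowest of all 6, and without it the mean was 24.3% in Veh Water against 15.5% in TSO Water. Of 20 mitochondrial genes tested 19 had lower means in TSO Water, and the 16 with reads in every library had log2 fold changes from -0.71 to -0.41, but 0 of the 20 had a limma p under 0.05 before adjustment. Without Veh Water 1 the 16 genes had log2 fold changes from -1.12 to -0.75, and all 16 had a limma p under 0.05 before adjustment, as did 1404 of all 10363 genes. ENSOCUG00000029096, singled out after its values were seen, was listed at 0 in Veh Water 2 and at 421545 to 933797 reads in the other 5 libraries. No fold change is given for it. The gene took 8.37% of the reads in Veh Water 3 and 3.94% to 5.70% in the other libraries with reads, so that the share listed for Veh Water 2 may be too low. Without this gene the mitochondrial share was 12.9%, 10.2% and 11.0% in TSO Water and 9.58%, 23.5% and 18.1% in Veh Water (exact p = 0.4), with a control mean of 20.8% without Veh Water 1. With mitochondrial genes taken out of the library size, the same 3 genes were called.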

How the data were processed

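RNA of LPMC and IEC from the caeca of 12 rabbits was sequenced (24 libraries). For each cell type and treated group the authors deposited a table with a normalised signal per gene and library, next to their own log2 ratio, p-value and FDR, which were not used. The genome build in the submitters' processing notes is OryCun2.0; the aligner and the counter are not given in the sources used here. The labels describe unstranded libraries, so a gene and an antisense partner cannot be told apart. The sources differ on the read type, which is single-end in the labels and paired in the methods of the study.

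In the table of LPMC, limma 3.58.1 (trend) in R 4.3.3 was run on log2(value + 1) over genes with a value above 10 in at least 2 of 3 libraries of a group. The deposited signal was a whole multiple of 1 step per library, and 100% of the values under 1000 gave whole reads within 0.1. These recovered reads gave the depth, RPM, comparisons across tables (TMM scaling, limma) and the count tests of edgeR 4.0.16 and DESeq2 1.42.0. Intervals on reads cover counting error only. P-values measure the spread between rabbits, with 3 in each group, apart from the interaction. There the LPMC and IEC libraries of a rabbit were fitted as independent. The limma fits of TSO Water against Veh Water in LPMC and IEC were also run on simulated counts as a check of the code, with no outcome given here.

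Named by rule were all called genes and, since no identifier could be paired with a symbol, the 2 higher and 2 lower genes with the lowest p-value beyond a log2 fold change of 1 and without overlap; the 2 higher ones were called genes. The genes, sets and tests were chosen with earlier results of these data known. Alternatives were another pseudocount, filters, scalings, room, replicate block, all 12 LPMC libraries, left-out libraries and count tests. After the data were seen, a library size without mitochondrial genes, the 56-gene list and the sets, shares and counts without Veh Water 1 and the mitochondrial share without 1 gene were added. The planned gene and marker lists need symbols and were not run.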

Additional observations from a re-analysis of the deposited data

How the results depend on the processing

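The count of 3 called genes in LPMC stayed at 3 with a pseudocount of 0.1, scaling by library size, TMM, or a library size without mitochondrial genes, each time with the same 3 genes, and was 4 with a mean value above 50, which kept the 3. It was 1 with no filter on low values, 0 with all 12 LPMC libraries, 0 with the room as a covariate and 6 with rabbits of room A alone (3 higher and 3 lower). It was 315 at the unadjusted p-value, 0 with the edgeR quasi-likelihood test, 152 with the likelihood ratio test and 145 with DESeq2, of which 138 and 135 were higher. With each library left out it ranged from 0 to 5. The 5 named genes kept their direction in the 19 alternatives fitted for each in TSO Water against Veh Water and in the 8 for TSO DSS against Veh DSS. In TSO Water against Veh Water the groups of all 5 do not overlap, so that no left-out library or room could reverse them there. The replicate number as a block gave 0 called genes in LPMC, in IEC and in the interaction, and 0 of the 5 named genes in the DSS rabbits. The numbers name different rabbits, the deviations of same-numbered LPMC libraries correlated at -0.26, 0.11 and -0.21, and 2 of the 6 libraries correlated best with their own number, so that the block has no pairing behind it. The IEC count was 151 at the unadjusted p-value and 0 to 1 with each library left out. The interaction gave 0 to 1 gene with each rabbit left out, and 0 with the rabbit as a block. In TSO DSS against Veh DSS 0 to 1 of the named genes were called with each library left out. The difference in epithelium-enriched share was -0.0173 percentage points with the 8-fold limit, and -0.0223 with the 56-gene list, which changed the fold limit to 4, the minimum level from 100 to 20 RPM and the need for reads in LPMC together, in place of 0. The causes were not tested. Low genes rest on few reads, and 49 higher and 27 lower genes at the unadjusted threshold passed the filter in 1 group alone. The count of lower genes at that threshold was 75 with all libraries, 441 without Veh Water 1, and 42 and 50 without Veh Water 2 and 3.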
